A study of Mus musculus with 3 samples.

Results

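The clustered protocadherin genes of the mouse were examined for DNA methylation at CCGG sites. The members were the protein-coding genes on chromosome 18 whose names start with Pcdha, Pcdhb, Pcdhga, Pcdhgb or Pcdhgc in GENCODE M21. These were 57 of 21851 protein-coding genes, with 14 in the alpha cluster, 22 in the beta cluster and 21 in the gamma cluster. Each gene was represented by a window from 1 kb before the start of its first exon to the end of that exon, and the rest of each cluster was kept apart. MethylRAD, in which the enzyme FspEI releases short fragments around methylated cytosines, was measured in 3 libraries of E14Tg2A, a mouse embryonic stem cell (ESC) line. The undifferentiated sample was kept in medium with leukemia inhibitory factor (LIF). The untreated sample was the same line on day 7 of differentiation by LIF withdrawal and retinoic acid addition, and the treated sample was differentiated for the same time with 3 mM pargyline, an inhibitor of the histone demethylase LSD1. All 3 came from the same wild-type line, and differentiation with retinoic acid gives a mixed population rather than 1 cell type.

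Clustered protocadherins are cell-surface adhesion molecules through which neurons tell their own branches from those of other neurons. In the alpha and gamma clusters, each variable first exon has its own promoter, encodes the extracellular and transmembrane parts of 1 isoform and is spliced to constant exons shared by the cluster, whereas the beta genes have no constant exons. A neuron uses a few of the promoters, and the choice involves promoter methylation by DNMT3B, the insulator protein CTCF with cohesin, and the chromatin protein SMCHD1. The 5 C-type genes (Pcdhac1, Pcdhac2, Pcdhgc3, Pcdhgc4 and Pcdhgc5) lie at the downstream ends of the alpha and gamma arrays and are not chosen in this random manner.

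Each library list held its CCGG sites with at least 5 reads, and an unlisted motif can therefore have had up to 4 reads. The lists held 31614085 CCGG reads for the undifferentiated, 36654600 for the untreated and 25767119 for the treated sample, at 870345, 882955 and 892366 sites. Reads were scaled to 1000000 CCGG reads of the library, and levels are given as these scaled reads divided by the number of CCGG motifs. With 1 library per condition, no difference could be set against a spread between replicates and no test was made. The 95% intervals hold the error of counting alone, since copies made by PCR could not be told apart from separate fragments. CCGG reads made up 62.0%, 49.7% and 38.3% of the mapped reads in the 3 samples, so that scaling to mapped reads instead shifts every log2 ratio by -0.32 for untreated against undifferentiated, by -0.69 for treated against undifferentiated and by -0.38 for treated against untreated. Among pluripotency genes known to gain promoter methylation on differentiation, the Pou5f1 window, with 4 CCGG motifs, held 6, 108 and 71 reads in the undifferentiated, untreated and treated samples. Tdgf1 held 0, 6 and 18 reads, the 5 motifs of Zfp42 were not listed, and the windows of Nanog and Dppa3 hold 0 CCGG motifs. Both day 7 libraries thus had more reads at Pou5f1 than the undifferentiated library.

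The clusters lie next to each other on chromosome 18 of GRCm38. The alpha cluster spans chr18:36929285-37187657 (258 kb), the beta cluster chr18:37263938-37524479 (261 kb) and the gamma cluster chr18:37660793-37841873 (181 kb). The first exons were long, with 2346 to 3028 bp in the alpha cluster, 2588 to 8695 bp in the beta cluster and 2542 to 2961 bp in the gamma cluster. In GENCODE M21, 2 gene identifiers carry the name Pcdha11, and they are called upstream Pcdha11 (ENSMUSG00000007440) and downstream Pcdha11 (ENSMUSG00000102206) here. Pcdhgb8 is annotated as a polymorphic pseudogene and was counted in the rest of the gamma cluster. The windows held 393 CCGG motifs, of which 322 have a surrounding 32 bp that occurs once in the genome with at most 1 mismatch outside the motif.

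A large share of these motifs was already methylated in undifferentiated ESCs. In the windows of all 3 clusters together, 53.7% of the CCGG motifs (95% Wilson interval 48.7 to 58.6) were listed in the undifferentiated sample. The shares were 52.7% (47.7 to 57.6) in the untreated and 58.3% (53.3 to 63.0) in the treated sample. These intervals treat the motifs of 1 library as independent draws, which linked motifs are not, and so no difference between libraries was read from them. With the counts thinned to the smallest CCGG total, that of the treated library, the shares were 49.6%, 44.5% and 58.3%. Over the windows of all protein-coding genes, only 14.6%, 20.6% and 24.3% of the motifs were listed in the same order. Among 446 other genes with a first exon of 2000 bp or longer, which also start with a long exon, the shares were 24.9%, 31.8% and 37.7%. The 12 non-clustered protocadherins, which have no array of alternative first exons, had 16.2%, 24.9% and 37.6%. As listed, without thinning, all 3 comparison sets had higher shares post differentiation than before, whereas the clusters took different courses. In the same order of samples, 45, 50 and 56 of the 90 alpha motifs were listed (the last 2 are 55.6% and 62.2%). The beta windows had 65.5%, 58.2% and 59.1% of 110 motifs listed, and the gamma windows 48.7%, 48.2% and 56.0% of 193. Of the 283 CCGG positions listed in at least 1 library, 156 (55.1%) were listed in all 3, against 38.6% of the 33113 listed positions in the windows of all protein-coding genes. Positions listed in both day 7 libraries and not before numbered 28 (9.89%, against 14.8%), and positions listed only in undifferentiated cells numbered 27 (9.54%, against 3.97%). In the other genes with long first exons, 45.2% of the listed positions were listed in all 3 libraries, 14.5% in both day 7 libraries alone and 3.32% only in undifferentiated cells. Over all listed CCGG positions of the genome, these shares were 71.9%, 6.46% and 5.31%, so that the share listed in all 3 lay above that of other gene windows and below that of the genome.

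**Figure D1:**
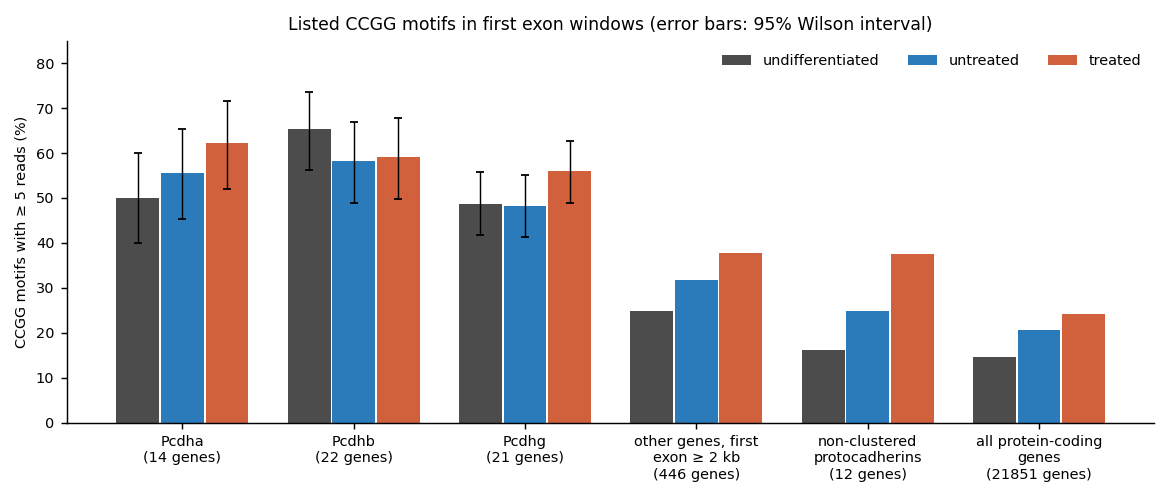
The bars give the percent of CCGG motifs with at least 5 reads in the first exon windows of the alpha (Pcdha), beta (Pcdhb) and gamma (Pcdhg) clusters and of 3 comparison sets, in the undifferentiated, untreated and treated libraries, and the error bars are 95% Wilson intervals for the clusters. The clusters lay between 48.2% and 65.5%, whereas the comparison sets lay between 14.6% and 37.7%.

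The levels of the 3 clusters were similar. The alpha windows had 0.484, 0.501 and 0.480 scaled reads per motif in the undifferentiated, untreated and treated samples. The beta windows had 0.443, 0.409 and 0.458, and the gamma windows had 0.388, 0.332 and 0.430. The median gene of the clusters had 0.402 per motif in undifferentiated cells, and the median over all protein-coding genes was 0.0119. Within the clusters, the genes ranged from 0 (Pcdhb8) to 1.52 (Pcdha2) in undifferentiated cells, from 0 to 1.59 in the untreated and from 0 to 1.30 in the treated sample. The spread between genes of 1 cluster was thus far wider than the difference between the clusters.

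**Figure D2:**
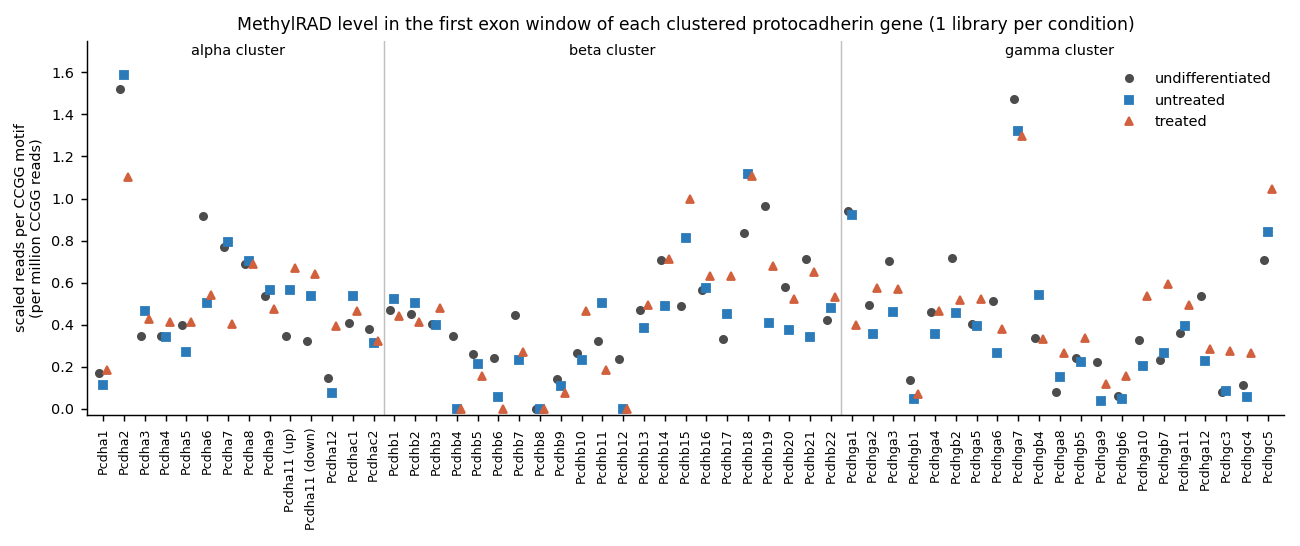
Each point is the level of 1 gene in 1 library, in scaled reads per CCGG motif, with the 57 genes in the order of their position and vertical lines between the clusters. Pcdha2 and Pcdhga7 were the highest genes of undifferentiated cells at 1.52 and 1.47, and Pcdhb8 was at 0 in every library.

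The reads were not spread evenly along the first exons. In the 12 alpha genes that are not C-type, the first 500 bp of the exon had 5.40 CpG per 100 bp and 0.132 scaled reads per motif in undifferentiated cells, with 16.7% of 18 motifs listed. From 500 bp on, the 500 bp bins of these genes had between 0.564 and 0.745 per motif. The bin with the most CpG, from 1500 to 1999 bp with 6.48 CpG per 100 bp, had 0.734 per motif with 80.0% of 5 motifs listed, so that a low level did not go with CpG density in every bin. The 18 gamma genes that are not C-type had the same shape, with 5.02 CpG per 100 bp and 0.0640 reads per motif in the first 500 bp and between 0.366 and 0.772 in the bins from 500 bp on. The start of the C-type exons was low as well, at 0.0474 per motif with 5.88 CpG per 100 bp. The beta genes differed from this shape, since their first 500 bp had only 1.86 CpG per 100 bp and a level of 0.431, and their bin from 1500 to 1999 bp had 4.66 CpG per 100 bp and a level of 0.731. Of the 18 motifs in the first 500 bp of the alpha exons, only 6 have a surrounding sequence that occurs once in the genome, so that uniquely mapped reads were limited there. At those 6 motifs the level was 0.0316, and at the 31 such motifs of the 44 in the gamma exon starts it was 0.0908. The low level at the exon starts was therefore seen also at motifs that can be mapped. Across the 21 gamma genes, the CpG ratio of the window and the level per motif had a Spearman correlation across genes of -0.53 in undifferentiated, -0.42 in untreated and -0.28 in treated cells. In the 14 alpha genes it was -0.18, -0.25 and -0.33, in the 22 beta genes -0.03, 0.10 and 0.05, and across all 57 genes -0.24, -0.09 and -0.04. Genes share libraries and related sequence and are not independent replicates.

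**Figure D3:**
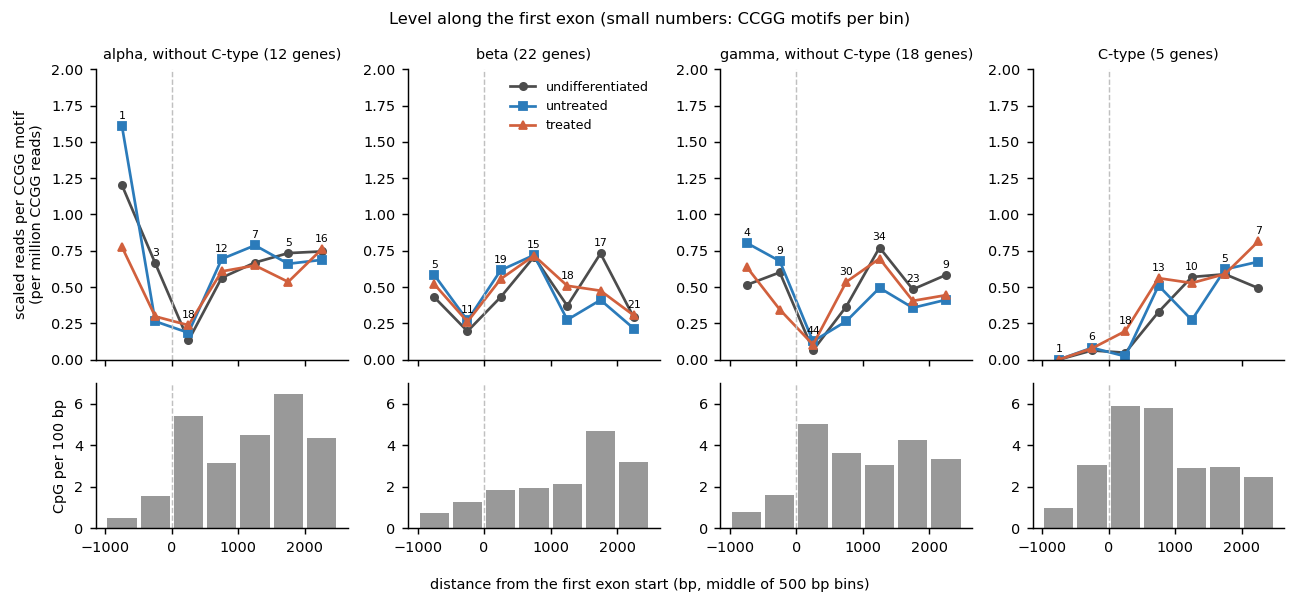
The upper row gives scaled reads per CCGG motif in 500 bp bins by distance from the first exon start, for the 3 libraries, with the number of motifs per bin, and the lower row gives CpG per 100 bp. The first 500 bp of the alpha, gamma and C-type exons held 5.02 to 5.88 CpG per 100 bp and few reads, the alpha bin from 1500 to 1999 bp held 6.48 and 0.734 reads per motif, and the beta exon starts held 1.86 CpG per 100 bp and 0.431 reads per motif in undifferentiated cells.

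Differentiation without pargyline was compared by the ratio of scaled reads, untreated over undifferentiated. For the alpha windows, with 1376 and 1652 reads, the ratio was 1.04 (0.963 to 1.11). The beta windows, with 1539 and 1650 reads, had a ratio of 0.925 (0.862 to 0.992). The gamma windows held 2370 and 2351 reads and had a ratio of 0.856 (0.808 to 0.906). The interval of the alpha cluster thus included 1, and the beta and gamma clusters were slightly lower on day 7. With unlisted positions at 4 reads, the beta interval included no change as well (log2 ratio -0.089, -0.19 to 0.0098). When only motifs that occur once were counted, the beta log2 ratio moved from -0.11 to 0.00. Of the 57 genes, 52 had at least 50 reads summed over the 3 libraries and were compared singly. A scaled level at least 1.5 times higher in the untreated sample was found for 6 genes (11.5%), against 32.5% of the 7107 protein-coding genes compared in the same way. A level at least 1.5 times lower was found for 14 genes (26.9%), against 17.9% of all genes. The median log2 ratio was -0.07 for the clustered genes and 0.19 for all genes. By cluster, 2 alpha, 2 beta and 2 gamma genes were higher, and 2 alpha, 4 beta and 8 gamma genes were lower. Scaled to mapped reads, 0 genes were higher and 23 were lower.

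As listed, the direction depended on the place in the gamma exons. In the first 500 bp of the gamma genes that are not C-type, reads were more frequent in the untreated sample. There were 89 reads in undifferentiated and 203 in untreated cells (ratio 1.97, 1.53 to 2.55). These lay at 8 and 13 of 44 motifs, and the ratio with unlisted positions at 4 reads was not computed. They include the Pcdhga8 positions at 29 and 39 bp, with 6 and 18 reads each, which can come from the same fragments. From 500 to 999 bp the ratio was 0.723 (0.617 to 0.848) and from 1000 to 1499 bp it was 0.640 (0.576 to 0.711), with 830 and 616 reads. The beta genes showed the same order, with a ratio of 1.43 (1.22 to 1.67) in the first 500 bp and of 0.562 (0.478 to 0.659) from 1500 to 1999 bp. In the alpha genes that are not C-type, the first 500 bp had a ratio of 1.40 (1.04 to 1.90) and the bin from 2000 bp a ratio of 0.922 (0.799 to 1.06). A window of 500 bp on each side of the exon start turned the log2 ratio of the beta cluster from -0.11 to 0.50 and that of the gamma cluster from -0.23 to 0.42. That of the alpha cluster moved the other way, from 0.05 to -0.080 (-0.41 to 0.25).

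Treatment with pargyline during differentiation was compared with the untreated sample. The ratio of scaled reads, treated over untreated, was 0.958 (0.887 to 1.03) for the alpha windows, 1.12 (1.04 to 1.21) for the beta windows and 1.29 (1.22 to 1.37) for the gamma windows. Of the 52 genes, 16 were at least 1.5 times higher in the treated sample (30.8%, against 32.0% of all genes) and 4 were at least 1.5 times lower (7.69%, against 9.99%). These shares were close to the background. The median log2 ratio was 0.31 for the clustered genes and 0.25 for all genes. Within the gamma cluster, 10 of 21 genes were higher (47.6%, against 32.0% of all genes) and 2 were lower (9.52%, against 9.99%). Of the genes at least 1.5 times higher, 3 were alpha and 3 were beta genes. Scaled to mapped reads, the gamma log2 ratio moved from 0.37 to -0.01, and the numbers of higher and lower genes from 16 and 4 to 8 and 9. Within 500 bp on each side of the exon start, the log2 ratios of treated over untreated were 0.51 (0.18 to 0.83) for the alpha, -0.13 (-0.33 to 0.069) for the beta and -0.21 (-0.44 to 0.0060) for the gamma cluster.

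In this comparison, the gamma genes that are not C-type had a ratio above 1 from 500 bp on and below 1 before the exon start. From 500 to 999 bp, the gamma genes that are not C-type held 347, 291 and 414 reads in the undifferentiated, untreated and treated samples, and the treated sample was 2.02 times (1.74 to 2.36) the untreated. In the 500 bp before the exon start they held 171, 224 and 80 reads, and the ratio was 0.508 (0.389 to 0.659). In the first 500 bp the ratio was 0.820 (0.647 to 1.03). Over all bins, the treated level lay above the untreated level in the bins from 500 bp on, and below it before the exon start and in its first 500 bp, but the intervals included 1 in the bins from 1500 bp on, in the first 500 bp and in the bin farthest before the start.

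The treated sample was also compared with undifferentiated cells. These comparisons share libraries with those above and are not independent of them. The ratios were 0.992 (0.916 to 1.07) for the alpha, 1.04 (0.961 to 1.12) for the beta and 1.11 (1.04 to 1.17) for the gamma windows. At motifs that occur once, the beta interval no longer included no change (log2 ratio 0.16, 0.046 to 0.28). Without Pcdhgc3 the gamma ratio was 1.06 (log2 ratio 0.08, -0.0093 to 0.16), and without all 3 C-type genes the log2 ratio was 0.0068 (-0.086 to 0.099), so that both intervals included no change. Of the 52 genes, 12 were at least 1.5 times higher (23.1%, against 44.1% of all genes) and 9 were at least 1.5 times lower (17.3%, against 14.9%). The median log2 ratio was 0.06, and it was 0.42 for all genes. Scaled to mapped reads, 5 genes were higher and 27 were lower. On the CCGG scale, the clustered genes had a smaller share of higher genes than the background in both comparisons with undifferentiated cells. The background can hold genes that passed the minimum of reads through the day 7 libraries alone, and these counted as higher. In undifferentiated cells, the median level per motif was 0.0119 over all protein-coding genes and 0.402 over the clustered genes. Of the 349 other genes with long first exons compared, 86 and 138 were higher in the untreated and treated samples, and 46 and 38 were lower. The part of the starting level in these shares was not tested.

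**Figure D4:**
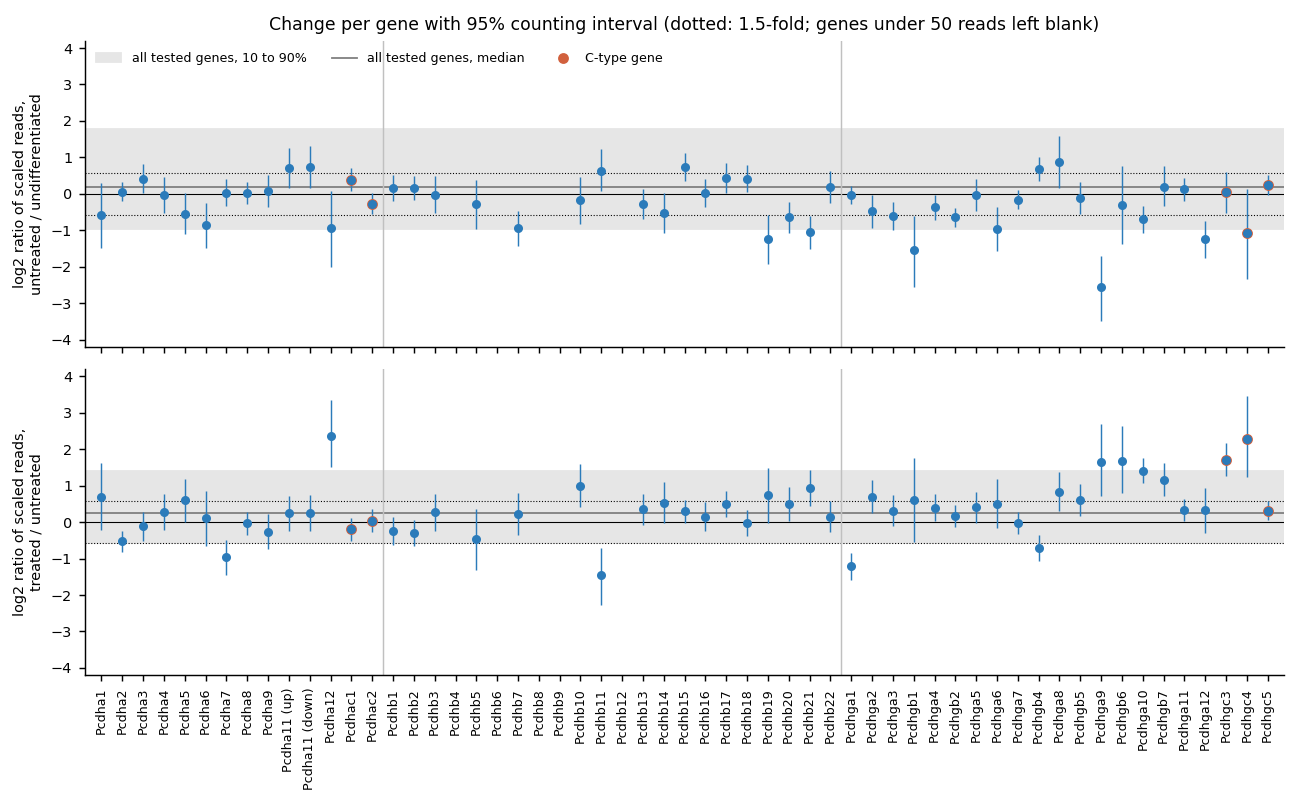
Each point is the log2 ratio of scaled reads of 1 gene with its 95% counting interval, for untreated over undifferentiated (top) and treated over untreated (bottom), with C-type genes outlined in red. The grey band holds the middle 80% of all protein-coding genes compared and the grey line their median (0.19 and 0.25), and most clustered genes fell inside the band.

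Each of the 3 gamma C-type genes had a higher level in the treated than in the untreated sample. This direction was not particular to them, since 18 of the 21 gamma genes were higher in the treated sample. The gamma windows that are not C-type had a ratio of 1.22 (1.14 to 1.30). The values of the C-type genes follow. The windows of the 3 gamma C-type genes together held 272, 349 and 418 reads. Their treated sample was 1.70 times (1.47 to 1.97) the untreated and 1.89 times (1.61 to 2.205) the undifferentiated. Pcdhgc3, with 20 motifs the member with the most CCGG motifs, held 52, 62 and 142 reads at 2, 6 and 10 listed positions. The untreated level was 1.03 times (0.700 to 1.52) the undifferentiated, and the treated level was 3.26 times (2.40 to 4.46) the untreated. Of its 5 listed positions within the first 500 bp, at 93, 110, 152, 335 and 346 bp from the exon start, 0 were listed in undifferentiated cells, 1 (7 reads at 110 bp) in the untreated and 5 (8 to 16 reads) in the treated sample. The site with the most reads in undifferentiated cells, at 1315 bp, held 46, 14 and 30 reads. With unlisted positions set to 4 reads, the ratio of treated over untreated at Pcdhgc3 was 2.59. The positions at 335 and 346 bp held equal counts, as did those at 2148 and 2156 bp, and each pair can come from the same fragments. With each pair counted once, Pcdhgc3 held 52, 56 and 117 reads and a ratio of treated over untreated of 2.97, and the ratio of the gamma C-type genes together was 1.63.

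Pcdhgc4, an isoform known to be needed for the survival of neurons, held 18, 10 and 34 reads at 1 or 2 of 5 motifs. Nearly all of them were at 1 site 1146 bp into the exon, with 18, 10 and 28 reads. The ratio of treated over untreated was 4.84 (2.34 to 10.98), or 3.45 with unlisted positions at 4 reads. Pcdhgc5 had the highest level of the C-type genes, with 202, 277 and 242 reads and 0.710, 0.840 and 1.04 scaled reads per motif. Its treated sample was 1.24 times (1.04 to 1.48) the untreated and 1.47 times (1.21 to 1.78) the undifferentiated. Without Pcdhgc3, the ratio of treated over untreated for the gamma C-type genes was 1.37, against 1.70 with it.

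The alpha C-type genes did not share this difference. Pcdhac1 held 142, 216 and 132 reads, and the treated sample was 0.869 times (0.695 to 1.08) the untreated. Its untreated sample was 1.31 times (1.06 to 1.63) the undifferentiated. Pcdhac2, an isoform known for the spacing of serotonergic axons, held 203, 195 and 141 reads with a ratio of treated over untreated of 1.03 (0.822 to 1.28). Its position at 2960 bp into the exon held 52, 97 and 41 reads, and that at 1276 bp, the highest in undifferentiated cells, held 66, 20 and 25 reads. In the first 500 bp of all 5 C-type exons, 27, 15 and 91 reads were counted, and the treated level was 8.63 times (4.97 to 16.05) the untreated. With unlisted positions at 4 reads this ratio was 3.32. Without Pcdhgc3, the set rested on 3 positions with 27, 8 and 40 reads. Its ratio of treated over untreated was 7.11 as listed (log2 ratio 2.83, 1.72 to 4.14) and 3.56 with unlisted positions at 4 reads. With neighbouring positions counted once, the ratio of treated over untreated was 7.87 over all 5 C-type exons. The untreated level was itself lower than the undifferentiated here as listed, at 0.479 times (log2 ratio -1.06, -2.08 to -0.099). With unlisted positions at 4 reads it was 0.660 times, and the interval included no change (log2 ratio -0.60, -1.24 to 0.029). The treated level was 4.14 times the undifferentiated (2.19 times with unlisted positions at 4 reads), or 1.82 times without Pcdhgc3. With unlisted positions at 4 reads as well, the latter was 1.58 times and its interval included no change (log2 ratio 0.66, -0.050 to 1.39).

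**Figure D5:**
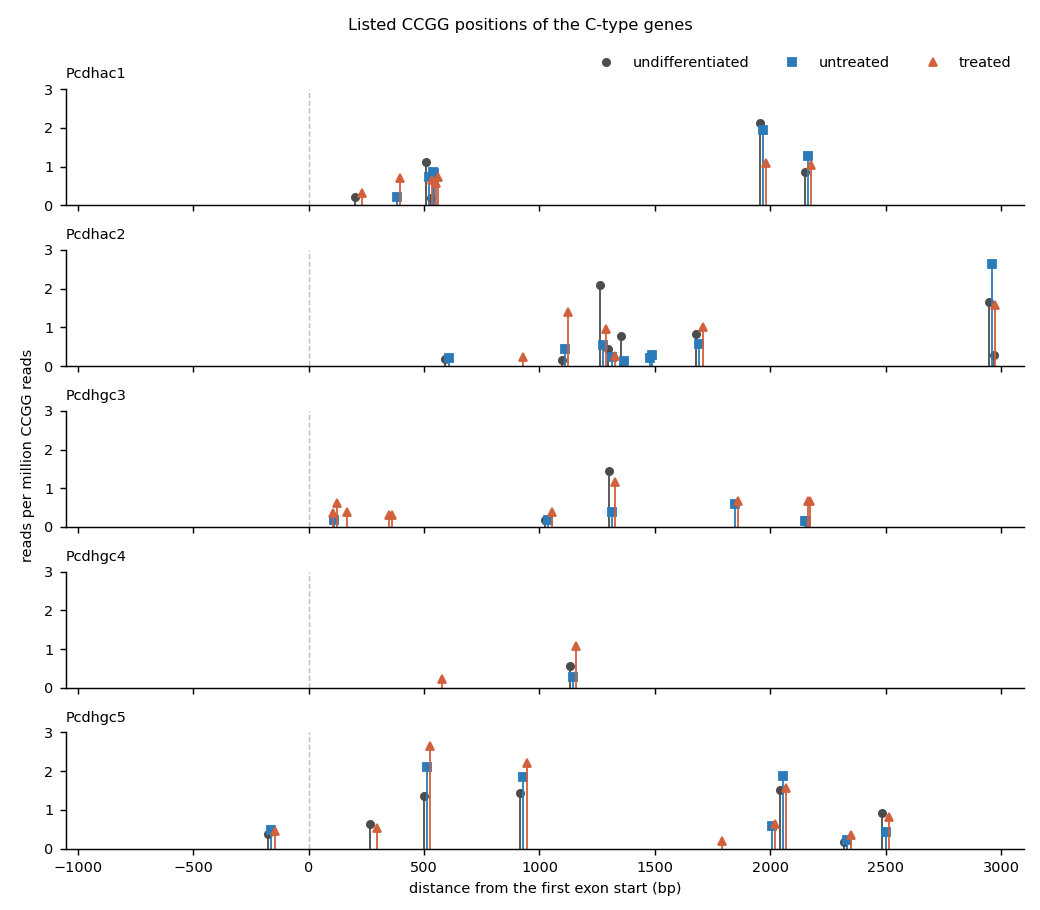
Each stem is a listed CCGG position of a C-type gene, by its distance from the first exon start in bp and its scaled reads, with the stems of the 3 libraries set 14 bp apart so that they can be seen. In Pcdhgc3, all 5 positions within the first 500 bp were listed in the treated library, 1 of them in the untreated and 0 in the undifferentiated library.

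Among the other alpha genes, Pcdha2 and Pcdha6 had the highest levels per motif in undifferentiated cells. Pcdha2 held 240, 291 and 142 reads at 4 of its 5 motifs, and its treated level was 0.694 times (0.564 to 0.851) the untreated. The site of this gene with the most reads in undifferentiated cells, 780 bp into the exon, held 113, 139 and 35 reads. Pcdha6 rested on 1 listed position with 58, 37 and 28 reads. Pcdha7 held 122, 145 and 52 reads and had the lowest ratio of treated over untreated in the cluster, at 0.510 (0.364 to 0.705). The reads at its upstream site, at -851 bp from the exon start, were 38, 59 and 20, and those at 1903 bp in the exon were 55, 71 and 14. These sites had their fewest reads in the treated sample, whereas the site at 394 bp held 16, 15 and 18 reads.

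Pcdha12 and Pcdha1 were the lowest alpha genes of undifferentiated cells. Pcdha12 held 23, 14 and 51 reads, with 2, 2 and 5 of its 5 motifs listed, and the treated level was 5.18 times (2.83 to 10.1) the untreated. With unlisted positions at 4 reads, this ratio was 2.79. Pcdha1 held 27, 21 and 24 reads with overlapping intervals around 1 in every comparison. The pair of genes named Pcdha11 had the highest ratios of untreated over undifferentiated in the cluster. Upstream Pcdha11 held 44, 83 and 69 reads (ratio 1.63, 1.12 to 2.40) and downstream Pcdha11 held 41, 79 and 66 reads (1.66, 1.13 to 2.49). Their counts lay close together although no listed position is shared, since upstream Pcdha11 rested mostly on 1 site at 2317 bp and downstream Pcdha11 on 3 sites.

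In the beta cluster, 5 genes had fewer than 50 reads over the 3 libraries, namely Pcdhb4, Pcdhb6, Pcdhb8, Pcdhb9 and Pcdhb12. Pcdhb8 had 0 listed positions among 3 motifs in every library. Pcdhb9 held 18, 16 and 8 reads. Pcdhb4 (22 reads) and Pcdhb12 (15 reads) were listed in undifferentiated cells and not in either day 7 sample. Pcdhb6 held 23, 6 and 0 reads. With unlisted positions at 4 reads, the log2 ratios of untreated over undifferentiated were -1.67 (-3.05 to -0.45) for Pcdhb4, -2.15 (-3.74 to -0.81) for Pcdhb6 and -2.12 (-4.17 to -0.47) for Pcdhb12. Each of these genes rested on 1 or 2 listed positions. Pcdhb19 and Pcdhb18 had the highest levels of undifferentiated cells. Pcdhb19 held 61, 30 and 35 reads at both of its motifs, and the untreated level was 0.424 times (0.264 to 0.667) the undifferentiated. Pcdhb18 held 106, 164 and 114 reads, and its untreated and treated levels were 1.33 times (1.04 to 1.72) and 1.32 times the undifferentiated.

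Pcdhb15 was higher in both day 7 samples. It held 93, 179 and 154 reads, and the ratio to undifferentiated cells was 1.66 (1.29 to 2.16) for the untreated and 2.03 (1.56 to 2.66) for the treated sample. The positions at 359 and 779 bp of its exon held 29, 88 and 48 reads and 10, 54 and 48 reads, whereas the position at 1921 bp held 49, 24 and 16. Pcdhb21 held 113, 63 and 84 reads, with an untreated level of 0.481 times (0.348 to 0.660) the undifferentiated and a treated level of 1.90 times (1.35 to 2.67) the untreated. Its position at 3419 bp, with 12, 33 and 38 reads, lies also in the window of Pcdhb22. Without it, Pcdhb21 held 101, 30 and 46 reads, and these ratios were 0.256 and 2.18. Pcdhb11 rested on 1 site before its exon, at -582 bp, with 41, 74 and 19 reads, and its treated level was 0.365 times (0.208 to 0.611) the untreated. Pcdhb5 held 41, 39 and 20 reads and its intervals included 1 in every comparison. Pcdhb10 held 42, 43 and 60 reads, and its treated level was 1.98 times (1.32 to 3.01) the untreated, with 43 of the 60 reads at 1 site.

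Among the variable gamma genes, Pcdhga7 and Pcdhga1 had the highest levels of undifferentiated cells. Pcdhga7 held 233, 242 and 167 reads at 4 of 5 motifs, and its ratios were close to 1 in all 3 comparisons (0.879 to 0.982). Within the gene, the positions moved apart, with 94, 132 and 66 reads at 1416 bp and 77, 30 and 33 reads at 1618 bp. Pcdhga1 held 238, 270 and 82 reads and had the lowest ratio of treated over untreated in the cluster, at 0.432 (0.333 to 0.555). Its site before the exon, at -330 bp, held 96, 142 and 35 reads, and the site at 1902 bp held 82, 74 and 24. Without Pcdhga1, the ratio of treated over untreated for the gamma windows was 1.40.

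Pcdhga9 had the lowest ratio of untreated over undifferentiated of all members compared, with 71, 14 and 31 reads. The untreated level was 0.170 times (0.0885 to 0.304) the undifferentiated, or 0.345 times with unlisted positions at 4 reads. The treated level was 3.15 times (1.63 to 6.41) the untreated and 0.536 times (0.339 to 0.828) the undifferentiated. With unlisted positions at 4 reads these ratios were 2.04 and 0.703, and the interval of the latter included no change (log2 ratio -0.51, -1.08 to 0.052). Pcdhgb1 held 35, 14 and 15 reads, with 0.345 times (0.171 to 0.658) the undifferentiated level in the untreated sample, or 0.575 times with unlisted positions at 4 reads. Pcdhgb6 had the lowest level of undifferentiated cells in the gamma cluster, followed by Pcdhga8 and Pcdhgc3 at the same level (0.0822 per motif). Pcdhga8 held 26, 55 and 69 reads, and the untreated and treated levels were 1.82 times (1.12 to 3.03) and 3.26 times (2.05 to 5.33) the undifferentiated. Its positions at 29 and 39 bp held 6, 18 and 0 reads each and can come from the same fragments. With these counted once, the gene held 20, 37 and 69 reads, and the log2 ratios to undifferentiated cells were 0.67 (-0.15 to 1.54) and 2.08 (1.35 to 2.88), so that the first interval included no change. The positions at 919 and 991 bp were listed only in the treated sample, with 13 and 11 reads. Pcdhgb6 held 17, 16 and 36 reads, and its treated level was 3.20 times (1.73 to 6.18) the untreated, or 2.03 times with unlisted positions at 4 reads. Pcdhgb4 went the other way, with 118, 218 and 94 reads. Its untreated level was 1.59 times (1.27 to 2.01) the undifferentiated and its treated level 0.613 times (0.476 to 0.785) the untreated.

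Outside the first exon windows, the rest of the clusters held fewer motifs that could be mapped. The rest of the alpha cluster held 1127, 1511 and 1020 reads at 112 motifs, with ratios to undifferentiated cells of 1.16 (1.07 to 1.25) for the untreated and 1.11 (1.02 to 1.21) for the treated sample. The rest of the beta cluster held 444, 289 and 228 reads, with ratios of 0.561 (0.482 to 0.652) and 0.630 (0.535 to 0.741), and only 24 of its 66 motifs occur once. The rest of the gamma cluster held 1242, 1154 and 1031 reads, with ratios of 0.801 (0.739 to 0.869) and 1.02 (0.937 to 1.11). The window of Pcdhgb8 had 110, 83 and 144 reads. The constant exons shared by all alpha isoforms held 231, 293 and 163 reads, with 10, 9 and 8 of their 10 motifs listed. The gamma constant exons have 3 motifs, which held 0, 31 and 56 reads.

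The windows of the factors that act on the clusters held few reads. Of 13 genes (Ctcf, the cohesin genes and their regulators Rad21, Smc1a, Smc3, Stag1, Stag2, Nipbl and Wapl, the chromatin genes Smchd1 and Setdb1, and the methyltransferase genes Dnmt1, Dnmt3a and Dnmt3b), 3 had at least 50 reads over the libraries. Over all protein-coding genes, 7107 of 21851 had at least 50 reads. Wapl, which releases cohesin from DNA, held 0, 56 and 67 reads at 15 motifs. Smchd1 held 0, 25 and 25 reads at 11 motifs, and Dnmt3a held 25, 25 and 21 reads at 1 listed position. Wapl and Smchd1 were thus not listed in undifferentiated cells, where each of their motifs can have had up to 4 reads. Both reached 50 reads through the day 7 libraries alone. The shares listed over all 13 were 1.53%, 10.7% and 8.40%, against 14.6%, 20.6% and 24.3% over all protein-coding genes.

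Among the 12 non-clustered protocadherins, 7 were compared. In the treated sample, 5 of the 7 were at least 1.5 times higher than in the untreated sample and 0 were lower (background 32.0% and 9.99%), with a median log2 ratio of 0.86. The values for untreated over undifferentiated were 1 higher and 1 lower (background 32.5% and 17.9%), with a median of -0.43. The 1 higher gene was Pcdh10, with 0, 54 and 65 reads, and its ratio to undifferentiated cells has no finite value. Pcdh10 reached the minimum of reads through the day 7 libraries alone. It was also 1 of the 5 genes higher in the treated than in the untreated sample. Pcdh8 held 126, 165 and 279 reads, Pcdh7 held 106, 85 and 168, and Pcdh17 held 67, 47 and 120. Pcdh12, an adhesion molecule of endothelial cells, had the most reads of this set, at 361, 310 and 265.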

How the data were processed

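MethylRAD was measured in 3 libraries, 1 per condition. The authors discarded trimmed reads that lacked an FspEI site, aligned the others to GRCm38 (Bowtie2 2.3.3) and deposited the raw count and the RPM value (count over mapped reads) of every site with at least 5 uniquely mapped reads. CCGG motifs were located in the GRCm38 reference, and genes were taken from GENCODE M21 with the transcript of longest coding sequence. Counts were summed per window and scaled to the CCGG reads of the library. A gene was compared when its window held at least 50 reads over the 3 libraries and was called past 1.5-fold. Ratios carry exact (Clopper-Pearson) and shares Wilson 95% intervals. Window totals were simulated for untreated against undifferentiated over 7107 windows with counting (Poisson) error alone, without the cutoff of 5 reads or PCR copies. In these, 96.2% of the ratio intervals held the true value, which follows from that setting. Of 200 windows changed 2-fold, 94.5% passed 1.5-fold, and 7.38% of the unchanged windows did. The last share is therefore not a rate of false calls in the libraries.

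The genes named were the 5 C-type genes and, per cluster, the 2 highest and the 2 lowest levels per motif in undifferentiated cells and the 2 highest and the 2 lowest ratios of untreated over undifferentiated and of treated over untreated. The members of the comparison sets and Pcdhb4, Pcdhb6 and Pcdhb12 were named in addition. The members, lists and alternatives were chosen with earlier results of these data known. The alternatives were other scalings, cutoffs, windows and motif sets, and those that counted neighbouring positions once or left out the position shared by the windows of Pcdhb21 and Pcdhb22 were chosen after seeing the data. Of the 283 positions, 10 pairs lay within 16 bp of each other and can share fragments. No sequence is printed. The scripts ran in Python 3.11.15 (SciPy 1.17.1, pandas 2.3.3, numpy 2.4.6), with plots from matplotlib 3.10.9.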

Additional observations from a re-analysis of the deposited data

Results flagged for a closer look

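In data outside the CCGG comparisons, the treated list held 155 CCAGG positions in the clustered protocadherin windows, with 2058 reads, above the 52 positions with 687 reads in each of the undifferentiated and untreated lists. The CCTGG entries were equal in all 3 lists, at 72 positions with 921 reads. The CCAGG and CCTGG counts that are equal between lists were not used, and the part of the shared entries in this difference was not tested.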

How the results depend on the processing

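With 1 library per condition, leaving out a replicate was not possible, and no paired analysis was possible because the result comes from no test. The 18 summary values were recomputed 171 times over 13 alternatives. Of these, 132 stayed within the counting interval (counts of genes within 1.5 times) and 39 did not. Leaving out the 5 sites of more than 10000 reads, scaling to sites listed in all 3 libraries, setting unlisted positions to 4 reads, using the exon with the start codon, keeping only positions with CCGG in the reference and counting neighbouring positions once moved none of them beyond it, although at 4 reads the interval of the beta windows for untreated over undifferentiated (log2 ratio -0.089) came to include no change. Scaled to mapped reads, the log2 ratios of the alpha, beta and gamma windows were -0.27, -0.43 and -0.54 for untreated over undifferentiated, -0.71, -0.64 and -0.55 for treated over undifferentiated and -0.44, -0.21 and -0.0057 for treated over untreated, by the construction of the scale. On that scale, the genes higher and lower were 0 and 23, 5 and 27, and 8 and 9, in the same order of comparisons. Within 500 bp of the exon start, the log2 ratios were -0.080, 0.50 and 0.42 for untreated over undifferentiated, 0.43, 0.38 and 0.20 (-0.040 to 0.45, including no change) for treated over undifferentiated and 0.51, -0.13 and -0.21 for treated over untreated. With exons alone, the gamma log2 ratio of treated over untreated was 0.50, and 2 genes were lower. With motifs that occur once, the beta log2 ratios to undifferentiated cells were 0.0018 for the untreated and 0.16 for the treated sample. The interval of the latter (0.046 to 0.28) no longer included no change. With at least 200 reads per window, fewer genes were compared, and 2 were higher and 6 lower for untreated over undifferentiated, 5 higher and 3 lower for treated over undifferentiated, and 6 higher for treated over untreated. In the last comparison, Pcdha7, Pcdhga1 and Pcdhgb4 were still lower. The percent of motifs listed was 41.0, 37.2 and 42.7 in undifferentiated, untreated and treated cells at a minimum of 10 reads and 59.3, 58.1 and 64.3 at motifs that occur once. Thinned to the smallest CCGG total, 49.6, 44.5 and 58.3% were listed in the same order. At a minimum of 10 reads, the alpha log2 ratio of treated over untreated was -0.12 (-0.24 to -0.0083), an interval that no longer included no change. Apart from those constructions, the cause was not tested. Depth limits the genes of few reads, since a motif with up to 4 reads is not listed.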
